A study of Mus musculus with 6 samples.

Results

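WNT signalling genes were followed in primary cortical astrocytes with and without neogenin. The set holds the 47 genes of the count table, of 54532 in all, whose symbols mark them as WNT ligands (19), Frizzled and LRP5 or LRP6 receptors (12), secreted inhibitors of the SFRP, DKK and WIF1 kinds (9), R-spondins (3), or as Ctnnb1, Lef1, Tcf7 and Axin2 (4). They were chosen by name, not by their values. RNA was sequenced from 6 cultures of astrocytes from mouse pups, 3 per genotype. The knockout cultures came from GFAP-Cre::NEOf/f pups, in which Cre recombinase under the promoter of the astrocyte filament gene Gfap acts on a floxed Neo1 gene. The control cultures came from pups that the series' design text calls littermates and whose genotype is given only as control, and their library names carry the floxed gene without Cre. The sources used here do not give the age of the pups or the exon that Cre removes. Cells in which Cre has not acted keep Neo1. Replicates are labelled biological, with no word on which pup or litter each came from, so the p-values reflect only how far these samples differ among themselves, which may be technical in part.

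WNT proteins are secreted, lipid-modified ligands that bind Frizzled receptors together with a co-receptor, LRP5 or LRP6. In the canonical branch this stops a destruction complex from degrading β-catenin, the product of Ctnnb1, which then enters the nucleus and switches on genes with factors of the TCF and LEF family. In other branches ligands such as WNT5A act through Frizzled and ROR receptors on the cytoskeleton and calcium without β-catenin. SFRP proteins and WIF1 bind ligands, most DKK proteins block the LRP co-receptors, and R-spondins keep receptors at the surface. In the brain, WNT7A and WNT7B from neural cells act on blood vessels to build the blood-brain barrier, and astrocytes carry Frizzled receptors and both send and receive WNT signals.

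Total counts ran from 60819277 to 106081115 per library. Neo1 had 189, 189 and 198 CPM in the control and 101, 106 and 105 CPM in the knockout libraries, with no overlap, in the direction of the labels. It fell to 0.540 of control, in a count that also covers any exon left in place (log2 fold change −0.89, adjusted p = 5.8e-11, quasi-likelihood test of edgeR, Benjamini-Hochberg adjusted). The first principal component, with 74.4% of the variance, separated the genotypes. The second, with 10.3%, separated knockout replicate 2 from the other knockout libraries. Of the 14 astrocyte markers all were measured, led by Gfap at 946 ± 20.8 CPM in control cultures, against 431 ± 3.85 CPM in knockout cultures. In every library Xist was at most 0.356 CPM while 4 Y-linked genes summed to 136 to 142 CPM in control and 204 to 227 CPM in knockout libraries. Values are counts scaled to an equal library size (CPM), given as mean ± SD over n = 3 libraries, and log2 fold changes are knockout over control. The words rose and fell are kept for genes with an adjusted p under 0.05 over all 18530 genes tested. In bulk RNA, fewer cells of a type and less RNA per cell cannot be told apart.

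Of the 47 WNT genes, 43 passed the filter on low counts. Among these 8 rose and 15 fell in the knockout cultures, 53.5% in either direction, beside 38.3% of all genes tested. Those that rose were 18.6% of the WNT genes tested, beside 19.6% of all genes, and those that fell 34.9%, beside 18.7%. The median log2 fold change was −0.10, beside −0.0018 over all genes, and the WNT genes ranged from −2.36 for Wnt16 to 1.56 for Wnt6. Under scaling by total counts alone the median was −0.17, and it was −0.030 without control replicate 2, −0.056 without control replicate 3 and −0.15 without knockout replicate 1. In 29 of the 43 genes the 2 groups of libraries did not overlap, beside 49.3% of all genes tested. Changes were split within every class of ligand, receptor and inhibitor, as the plot of fold changes by role shows.

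**Figure D1:**
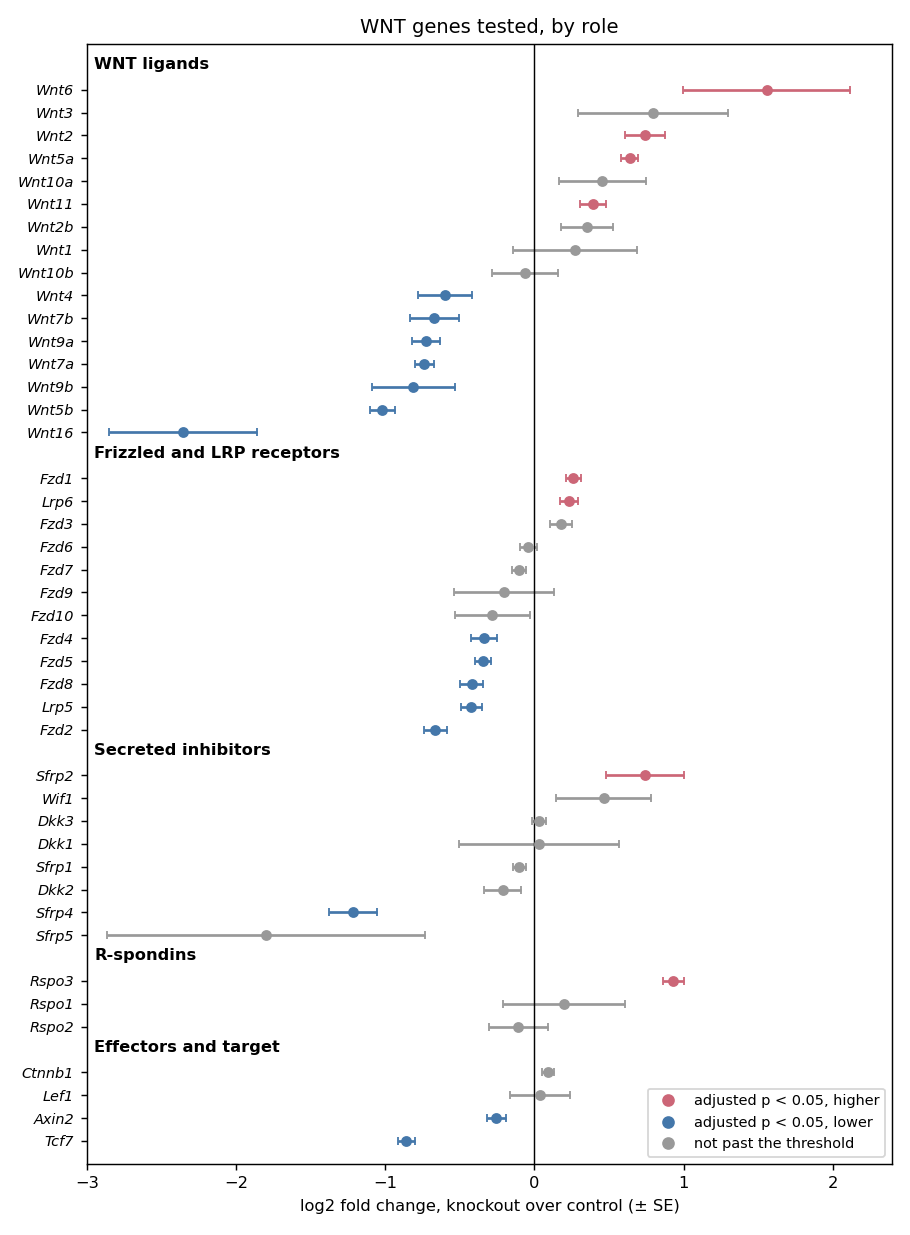
Log2 fold changes of knockout over control (horizontal axis) for the 43 WNT genes tested, grouped by role, with bars of 1 standard error from the edgeR fit; red and blue points passed the adjusted p threshold of 0.05 and grey points did not. Ligands and receptors each hold members that rose and members that fell, from Wnt6 at 1.56 to Wnt16 at −2.36.

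Markers of other cell types moved between the same libraries. Fibroblast and meningeal markers numbered 11 higher and 2 lower of 16 tested (median log2 fold change 0.62; 1 lower without control replicate 1 or control replicate 2), and the summed level of the list ran from 8468 to 8938 CPM in control and from 11916 to 12665 CPM in knockout libraries. Col1a2 rose (864 ± 18.1 against 1507 ± 60.8 CPM), Col3a1 (253 ± 2.71 against 496 ± 7.79 CPM), Thbs2 (287 ± 7.47 against 553 ± 18.8 CPM) and Dcn (14.7 ± 0.934 against 43.4 ± 0.468 CPM), all genes of the extracellular matrix (control mean ± SD first, here and in the pairs of values that follow). Microglia and macrophage markers numbered 1 higher and 12 lower of 15 (median −0.92), with summed levels from 139.7 to 147 CPM in control and from 91.8 to 99.2 CPM in knockout libraries. Csf1r, the receptor that microglia need to survive, fell (16.1 ± 1.53 against 8.47 ± 0.129 CPM), and C1qa, C1qb and C1qc, which encode the chains of complement C1q, fell with it by 2.13, 1.98 and 1.41 on the log2 scale. Astrocyte markers numbered 2 higher and 8 lower of 14 (median −0.38), with sums from 3129.9 to 3211 CPM in control and from 2751 to 2901 CPM in knockout libraries. Gfap, Fgfr3 and Aldoc fell by 1.13, 1.37 and 0.86 on the log2 scale and the glutamate transporter gene Slc1a2 rose by 1.48. Knockout libraries did not overlap control libraries for 13 of 16, 13 of 15 and 11 of 14 genes of these lists, beside 49.3% of all genes tested. In the same order, 81.25%, 86.7% and 71.4% of the lists were called in either direction, beside 38.3% of all genes.

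Endothelial markers numbered 4 higher and 1 lower of 12 (sums 113 to 119.6 CPM in control, 166 to 169.7 CPM in knockout), with Cdh5, Flt1 and Esam higher and Slco1a4 lower, and Pecam1 at 1.06 ± 0.134 and 1.40 ± 0.826 CPM. Pericyte and smooth muscle markers numbered 4 higher and 4 lower of 10, with sums from 4088 to 4266 CPM in control and from 3092 to 3124 CPM in knockout libraries; Acta2 and Myh11 fell, and Pdgfrb and Anpep rose. Markers of the oligodendrocyte lineage numbered 0 higher and 6 lower of 10, led by Olig1, Cspg5, Cnp and Bmp4, with sums from 232 to 247 CPM in control and from 142 to 174 CPM in knockout libraries. Neuronal markers numbered 1 higher (Dcx, not called without control replicate 2, control replicate 3 or knockout replicate 3) and 3 lower (Stmn2, Tubb3 and Syn1, the last not called without control replicate 3) of 12, with sums from 431 to 442 CPM and from 368 to 383 CPM. Choroid plexus markers numbered 2 higher (Enpp2 and Otx2) and 4 lower of 7, led by Ttr and Folr1. Ttr was nearly absent from knockout libraries, with 1, 0 and 2 counts beside 1219, 1353 and 2048 in control libraries. No other gene tested had a lower log2 fold change than Ttr (−10.4). The sums of the list were still higher in knockout (80.2 to 84.6 CPM) than in control libraries (61.7 to 64.3 CPM). Enpp2 (18.5 ± 0.508 against 59.0 ± 2.57 CPM) held most of the knockout sum. Ependymal markers numbered 0 higher and 2 lower of 9, Foxj1 and Dnah5, with sums from 82.6 to 86.1 CPM and from 47.5 to 54.7 CPM. Called in either direction were 41.7% of the endothelial, 80% of the pericyte and smooth muscle and 60% of the oligodendrocyte markers tested. The shares were 33.3% for neurons, 85.7% for choroid plexus and 22.2% for ependyma, beside 38.3% of all genes. The endothelial share was thus near that of all genes, and the neuronal and ependymal shares were below it. No listed marker was at 0 in all 6 libraries. Under the count filter were Slc22a6 and Slc6a13 of the meninges, Cldn5 and Erg of endothelium, Kcnj8 and Higd1b of pericytes, Mog and Gpr17 of oligodendrocytes, Slc17a6 of neurons, Kcnj13, Slc4a5 and Prlr of choroid plexus and Tmem212 of ependyma. Without knockout replicate 2, 1 oligodendrocyte and 2 neuronal markers were higher. With a filter of 1 CPM in 3 libraries, 2 neuronal markers were higher and 2 choroid plexus markers lower, as were 2 of the latter without control replicate 3. The part of these cell types in the WNT changes given here was not tested.

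Among the ligands, 4 rose and 7 fell of 16 tested, and the abundant ones moved in opposite directions. Those that rose were 25% of the ligands tested, beside 19.6% of all genes, and those that fell 43.75%, beside 18.7%. Wnt7a, which with Wnt7b acts on brain vessels, was the most abundant WNT ligand per kilobase of exon in control cultures (ENSMUSG00000030093, chromosome 6, 91363981 to 91411363, minus strand). It had 63.8, 63.3 and 62.9 CPM in the control and 40.8, 34.4 and 38.5 CPM in the knockout libraries. Every knockout library lay below every control library, at 0.599 of the control level (log2 fold change −0.74, SE 0.06, adjusted p = 5.7e-08, quasi-likelihood test of edgeR, Benjamini-Hochberg adjusted). Its paralogue Wnt7b, present at lower levels, had 5.24, 5.39 and 5.13 CPM in the control and 3.44, 2.60 and 3.86 CPM in the knockout libraries. It fell as well, at 0.628 of control (log2 fold change −0.67, SE 0.17, adjusted p = 0.0037, edgeR), and 6.62% of its exonic bases overlap an antisense gene, AU022754.

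Wnt5a and Wnt5b, a paralogous pair known mainly for signalling without β-catenin, moved apart. Wnt5a (ENSMUSG00000021994, chromosome 14, 28504750 to 28527448, plus strand) had 57.98, 58.1 and 64.9 CPM in the control and 92.4, 97.3 and 92.2 CPM in the knockout libraries. It rose 1.56-fold with no overlap between the groups (log2 fold change 0.64, SE 0.06, adjusted p = 7.2e-08, edgeR). Wnt5b (ENSMUSG00000030170, chromosome 6, 119432531 to 119544347, minus strand) had 27.8, 28.3 and 29.4 CPM in the control and 15.6, 12.7 and 13.8 CPM in the knockout libraries. It fell to 0.493 of control, again with no overlap (log2 fold change −1.02, SE 0.08, adjusted p = 2.7e-08, edgeR). Within a library the ratio of Wnt5a to Wnt5b, each per kilobase of exon, was 0.707, 0.696 and 0.748 in control and 2.01, 2.59 and 2.26 in knockout libraries, so Wnt5b led in all 3 control and Wnt5a in all 3 knockout libraries. Such a ratio does not depend on how libraries are scaled, but which gene leads depends on the exon lengths used. These were 7823 bases for Wnt5a and 2654 for Wnt5b, and by CPM without length Wnt5a was above Wnt5b in every library. An antisense gene, Gm2670, overlaps 4.58% of the exonic bases of Wnt5a.

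Wnt9a, Wnt4 and Wnt9b were lower in the knockout cultures. Wnt9a had 20.4, 21.2 and 19.1 CPM in the control and 12.8, 10.8 and 12.98 CPM in the knockout libraries, with no overlap between groups, and fell by 0.73 on the log2 scale (SE 0.09, adjusted p = 6.5e-06, edgeR). Wnt4, which is expressed in many developing epithelia, had 4.34, 4.10 and 3.44 CPM in the control and 2.37, 3.05 and 2.41 CPM in the knockout libraries and fell by 0.60 (SE 0.18, adjusted p = 0.013, edgeR). Wnt9b had 2.23, 2.39 and 1.49 CPM in the control and 1.18, 0.861 and 1.42 CPM in the knockout libraries and fell by 0.81 (SE 0.28, adjusted p = 0.028, edgeR). The last 2 calls were less firm: over 12 alternative settings the adjusted p ran from 0.0041 to 0.067 for Wnt4, which lost its call without control replicate 1, control replicate 2, knockout replicate 1 or knockout replicate 3, and from 0.016 to 0.13 for Wnt9b, which lost it without control replicate 1, control replicate 2, knockout replicate 1 or knockout replicate 2. Wnt16, a ligand known from bone and joint tissue, was scarce, with 46, 69 and 97 counts in the control and 9, 15 and 16 counts in the knockout libraries. That is 0.879 ± 0.131 CPM against 0.173 ± 0.0683 CPM, a 5.12-fold fall (SE 0.50 on the log2 scale, adjusted p = 0.001, edgeR).

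The ligands that rose beside Wnt5a were Wnt2, Wnt11 and Wnt6. Wnt2, an activator of the canonical branch, had 8.54, 5.96 and 6.39 CPM in the control and 11.1, 12.8 and 11.00 CPM in the knockout libraries. Control replicate 1 was the highest control, still under every knockout library, and the rise was 1.67-fold (log2 fold change 0.74, SE 0.13, adjusted p = 0.00023, edgeR). Wnt11, known for directing cell movements in the embryo, had 13.6, 12.7 and 13.5 CPM in the control and 17.99, 16.6 and 17.6 CPM in the knockout libraries and rose 1.31-fold (log2 fold change 0.39, SE 0.09, adjusted p = 0.0013, edgeR). An opposite-strand pseudogene, Gm8398, overlaps 8.80% of its exonic bases. Wnt6 was scarce, with 10, 12 and 26 counts in the control and 67, 25 and 49 counts in the knockout libraries. It rose 2.94-fold (SE 0.56 on the log2 scale, adjusted p = 0.036, edgeR), but the call was kept under 5 of 11 alternatives, with adjusted p from 0.011 to 0.16. It was lost with the replicate number as a block and without any one library except knockout replicate 2.

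The other 5 ligands tested did not pass the threshold. Wnt2b was at 3.06 ± 0.383 CPM in control, against 3.91 ± 0.487 CPM in knockout cultures (adjusted p = 0.13, edgeR), with groups that did not overlap, and Wnt3 at 0.327 ± 0.104 and 0.570 ± 0.161 CPM (adjusted p = 0.24, edgeR), also without overlap. Wnt1, Wnt10a and Wnt10b overlapped between groups, at 0.625 ± 0.0552, 1.04 ± 0.302 and 2.60 ± 0.414 CPM in control, against 0.755 ± 0.333, 1.42 ± 0.0743 and 2.50 ± 0.583 CPM in knockout cultures. Wnt3a, Wnt8a and Wnt8b had too few counts to be tested. Wnt3a had 2, 8 and 2 counts in control libraries, against 0 in each knockout library, and a count of 0 over the knockout group allows a level of up to 0.0124 CPM. Wnt8a had 7, 14 and 16 counts in control, against 4, 6 and 6 in knockout libraries, and Wnt8b 6, 3 and 8 and 22, 10 and 14. Such limits cover counting error only.

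**Figure D2:**
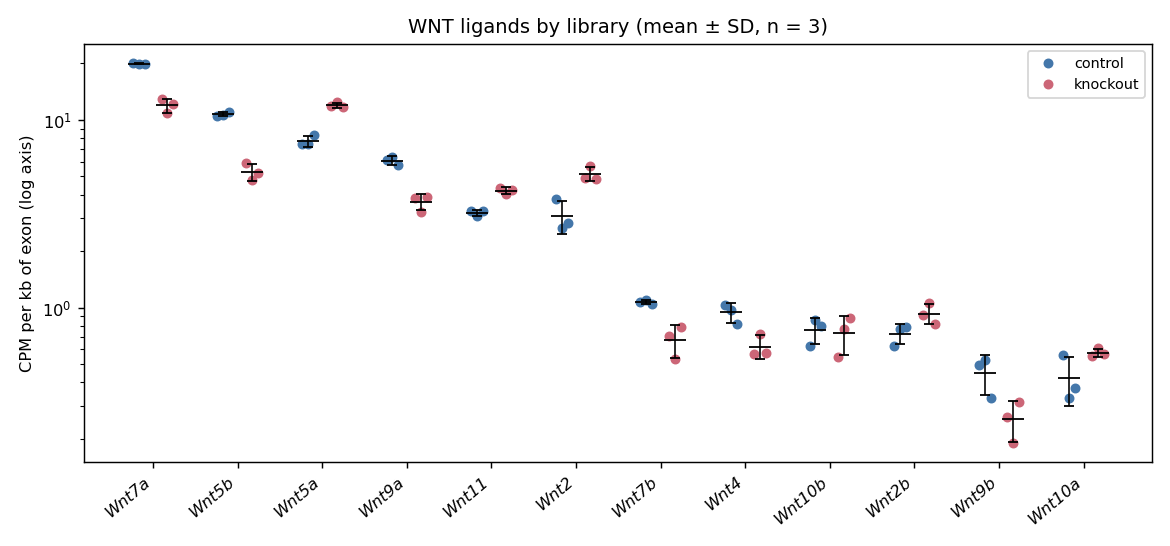
Levels of the 12 most abundant WNT ligands per kilobase of exon (CPM per kb, log axis) in each library, ordered by their control mean; points are libraries, and lines and bars are the mean ± SD of 3 libraries. Wnt7a leads in control libraries at 20.0 CPM per kb, while in knockout libraries Wnt5a and Wnt7a lie together at 12.01 and 11.95 CPM per kb.

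Per kilobase of exon, which allows levels of different genes to be compared, the ligands of the control cultures were ordered Wnt7a (20.0 ± 0.146 CPM per kb), Wnt5b (10.7 ± 0.307), Wnt5a (7.71 ± 0.504), Wnt9a (6.07 ± 0.323), Wnt11 (3.21 ± 0.110) and Wnt2 (3.09 ± 0.612). Only Wnt11 and Wnt2 overlapped with their neighbour among these 6. In the knockout cultures the order was Wnt5a (12.01 ± 0.368), Wnt7a (11.95 ± 1.03), Wnt5b (5.30 ± 0.544), Wnt2 (5.16 ± 0.447), Wnt11 (4.21 ± 0.167) and Wnt9a (3.66 ± 0.361). Here Wnt5a overlapped with Wnt7a, and Wnt5b with Wnt2. Wnt7a made up 35.7% of all ligand RNA per length in control and 25.4% in knockout cultures, Wnt5a 13.8% and 25.6%, Wnt5b 19.2% and 11.3%, and Wnt2 5.51% and 11.0%. The sum over all 19 ligands ran from 55.6 to 56.3 CPM per kb in control and from 45.5 to 48.2 CPM per kb in knockout libraries, with no overlap.

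Promoter letters are shown for 4 called genes. Wnt11 and Wnt5b moved in opposite directions and both hold the core letters bound by TCF and LEF factors. Wnt7a was the leading ligand of the control cultures per kilobase of exon, and Axin2 is a standard target of the canonical branch. The RefSeq table (GRCm38.p6) gave 39 promoters for 31 of the 47 genes. Not matched were Sfrp1, Sfrp4, Wnt5a, Wnt7b, Wnt8a, Wnt10a, Fzd2, Fzd3, Fzd6, Fzd8, Lrp5, Lrp6, Dkk3, Dkk4, Rspo2 and Rspo3. The 250 bases before each start were searched on both strands for CTTTGAT and CTTTGAA, which differ in their last letter only and so cannot match at the same place. Of all 32851 promoters, 3.21% hold the first and 4.46% the second. Of the 39, 1 of the 2 of Wnt11 and 1 of the 3 of Wnt5b hold CTTTGAT, and that of Dkk1 holds CTTTGAA. Capitals mark the match, which stands as ATCAAAG in Wnt11 because it lies on the opposite strand. There it lies 51 to 45 bases before the more upstream of 2 annotated starts. In Wnt5b it lies on the same strand as the gene, 71 to 65 bases before the most downstream of 3 annotated starts, so the window lies inside the gene. The counts pool all starts of a gene, and a match is a description of letters, not of binding.
Wnt11 (chr7:98834862-98835111, plus strand): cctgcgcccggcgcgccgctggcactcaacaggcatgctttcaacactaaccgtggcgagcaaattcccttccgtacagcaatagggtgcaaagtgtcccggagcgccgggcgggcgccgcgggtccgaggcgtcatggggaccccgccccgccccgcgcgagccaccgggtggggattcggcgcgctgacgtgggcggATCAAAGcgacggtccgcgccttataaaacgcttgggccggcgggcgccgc
Wnt5b (chr6:119449387-119449636, minus strand): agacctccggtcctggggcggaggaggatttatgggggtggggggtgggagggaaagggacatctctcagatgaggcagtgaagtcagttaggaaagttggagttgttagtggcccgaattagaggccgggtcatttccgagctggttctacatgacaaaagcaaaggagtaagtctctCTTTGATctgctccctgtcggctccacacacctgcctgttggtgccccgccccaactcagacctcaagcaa
Wnt7a (chr6:91411354-91411603, minus strand): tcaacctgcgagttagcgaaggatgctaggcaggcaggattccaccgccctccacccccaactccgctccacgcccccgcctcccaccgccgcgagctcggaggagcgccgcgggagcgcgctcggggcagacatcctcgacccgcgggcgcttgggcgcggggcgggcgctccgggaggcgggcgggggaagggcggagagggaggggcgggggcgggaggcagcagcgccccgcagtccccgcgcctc
Axin2 (chr11:108920099-108920348, plus strand): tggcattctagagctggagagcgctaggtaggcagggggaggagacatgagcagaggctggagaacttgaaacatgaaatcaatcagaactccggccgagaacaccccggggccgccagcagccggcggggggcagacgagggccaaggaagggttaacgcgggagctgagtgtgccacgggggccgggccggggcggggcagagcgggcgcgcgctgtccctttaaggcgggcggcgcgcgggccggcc

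Of the 12 receptors, all of which were tested, 2 rose and 5 fell. Those that rose were 16.7% of the receptors, beside 19.6% of all genes, and those that fell 41.7%, beside 18.7%. Fzd1 and Fzd7 were by far the most abundant Frizzled genes, at 54.8 ± 2.21 and 49.5 ± 2.10 CPM per kb in control cultures, ahead of Fzd2 at 12.7 ± 0.477 CPM per kb. Fzd1 (ENSMUSG00000044674, chromosome 5, 4753839 to 4758035, minus strand) had 237, 219.7 and 233 CPM in the control and 278, 259 and 289 CPM in the knockout libraries, with all knockout libraries higher. It rose 1.20-fold (log2 fold change 0.26, SE 0.05, adjusted p = 0.00035, edgeR). Fzd7, the nearest in level, had 223, 215 and 234 CPM in the control and 213, 202 and 210.3 CPM in the knockout libraries; the groups did not overlap, but the difference of −0.10 (log2, SE 0.05) did not pass the threshold (adjusted p = 0.084, edgeR). Scaled by total counts alone, Fzd7 was called lower.

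The other Frizzled genes that moved all fell. Fzd2 (ENSMUSG00000050288, chromosome 11, 102604396 to 102608058, plus strand), of the same subfamily as Fzd1 and Fzd7, had 47.4, 47.6 and 44.5 CPM in the control and 29.9, 25.6 and 32.5 CPM in the knockout libraries. It fell to 0.631 of control, and knockout replicate 2 was the lowest library (log2 fold change −0.66, SE 0.08, adjusted p = 2.3e-06, edgeR). Fzd8 had 37.1, 38.9 and 36.8 CPM in the control and 31.4, 24.8 and 28.03 CPM in the knockout libraries, and fell to 0.747 (log2 fold change −0.42, SE 0.08, adjusted p = 0.00033, edgeR). Its close relative Fzd5 had 67.6, 64.2 and 68.7 CPM in the control and 54.6, 50.2 and 52.98 CPM in the knockout libraries and fell to 0.787 (log2 fold change −0.35, SE 0.06, adjusted p = 8.2e-05, edgeR); an opposite-strand transcript, Gm38058, overlaps 17.8% of its exonic bases. Fzd4, which is also the receptor of norrin in retinal and brain vessels, had 15.5, 15.2 and 16.4 CPM in the control and 12.4, 12.3 and 12.5 CPM in the knockout libraries and fell to 0.790 (log2 fold change −0.34, SE 0.09, adjusted p = 0.0048, edgeR). For all 4 of these genes the knockout libraries lay below the control libraries. Fzd3 and Fzd6, known for planar cell polarity and axon guidance, were at 64.6 ± 5.05 and 48.3 ± 1.12 CPM in control, against 73.3 ± 7.99 and 46.9 ± 1.48 CPM in knockout cultures, with overlapping groups and adjusted p of 0.069 and 0.62 (edgeR). Fzd3 was called higher with no filter on low counts and without control replicate 3 or knockout replicate 1. Fzd9 and Fzd10 were scarce, at 0.945 ± 0.206 and 1.69 ± 0.220 CPM in control, against 0.815 ± 0.0907 and 1.39 ± 0.187 CPM in knockout cultures, and overlapped between groups.

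The LRP co-receptors, which Frizzled needs for the canonical branch, moved in opposite directions. Lrp5 (ENSMUSG00000024913, chromosome 19, 3584828 to 3686564, minus strand) had 83.9, 73.00 and 79.6 CPM in the control and 62.7, 52.2 and 61.3 CPM in the knockout libraries. It fell to 0.745 of control (log2 fold change −0.42, SE 0.07, adjusted p = 0.00011, edgeR). Lrp6 (ENSMUSG00000030201, chromosome 6, 134446476 to 134566965, minus strand) had 86.1, 89.99 and 100.4 CPM in the control and 109, 111 and 105 CPM in the knockout libraries. It rose 1.17-fold (log2 fold change 0.23, SE 0.06, adjusted p = 0.0038, edgeR), and the highest control library was below the lowest knockout library. The ratio of Lrp6 to Lrp5 per kilobase was 0.732, 0.878 and 0.899 in control and 1.24, 1.52 and 1.22 in knockout libraries. The sum over the 12 receptor genes was 161 to 169.8 CPM per kb in control and 157 to 169 CPM per kb in knockout libraries, which overlap.

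**Figure D3:**
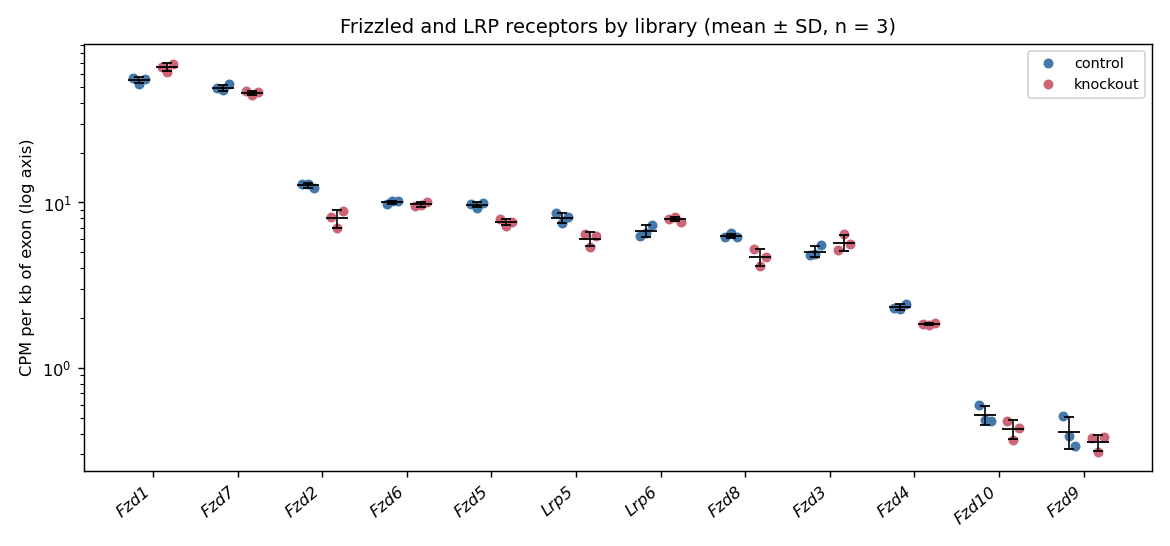
Levels of the 10 Frizzled genes and of Lrp5 and Lrp6 per kilobase of exon (CPM per kb, log axis) in each library, ordered by their control mean; points are libraries, and lines and bars are the mean ± SD of 3 libraries. Fzd1 and Lrp6 are higher and Fzd2, Fzd4, Fzd5, Fzd8 and Lrp5 are lower in the knockout libraries, with no overlap.

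**Figure D4:**
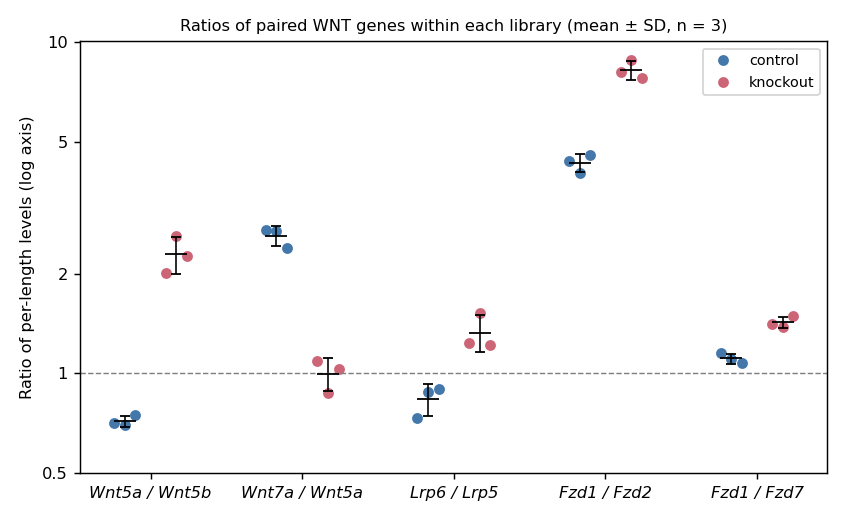
Ratios of per-length levels of 5 gene pairs within each library (log axis; the dashed line marks equal levels); points are libraries, and lines and bars are the mean ± SD of 3 libraries. Wnt5a over Wnt5b and Lrp6 over Lrp5 lie below 1 in every control library and above 1 in every knockout library. Whether a ratio lies above 1 depends on the exon lengths used. By CPM without length, Wnt5a and Lrp6 were the higher of their pairs in every library.

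The pairs in the plot of ratios were picked after their values were seen, so the ratios are a description with no test. Wnt7a over Wnt5a went from 2.60 ± 0.180 in control to 0.997 ± 0.113 in knockout libraries. Fzd1 over Fzd2 went from 4.32 ± 0.275 to 8.25 ± 0.551, and Fzd1 over Fzd7 from 1.11 ± 0.0388 to 1.43 ± 0.0528. In none of the 5 pairs did the control and knockout libraries overlap.

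Of 8 secreted inhibitors tested, 1 rose and 1 fell (25%, beside 38.3% of all genes). Sfrp1 made up 53.9% of inhibitor RNA per length in control and 52.2% in knockout cultures, and Dkk3 39.7% and 42.1%. Sfrp1, which binds WNT proteins outside the cell, had 193, 192 and 199.96 CPM in the control and 178, 183 and 185 CPM in the knockout libraries. The groups did not overlap, but the difference of −0.10 (log2, SE 0.04) had an adjusted p of 0.078 (edgeR), and it was called lower only under total-count scaling among 12 alternatives. Dkk3, a divergent DKK family member, had 109, 114 and 108 CPM in the control and 116, 109.8 and 112 CPM in the knockout libraries, with overlapping groups and a difference of 0.03 (SE 0.05, adjusted p = 0.67, edgeR) that turned negative under total-count scaling.

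Sfrp4 and Sfrp2 moved apart at low levels. Sfrp4 (ENSMUSG00000021319, chromosome 13, 19623104 to 19632994, plus strand) had 5.72, 7.60 and 6.29 CPM in the control and 2.75, 2.46 and 3.23 CPM in the knockout libraries. Every knockout library was lower, at 0.430 of control (log2 fold change −1.22, SE 0.16, adjusted p = 1.1e-05, edgeR). Sfrp2 had 1.01, 1.29 and 1.13 CPM in the control and 1.99, 1.46 and 2.28 CPM in the knockout libraries, with the groups apart but close in knockout replicate 2. It rose 1.67-fold (log2 fold change 0.74, SE 0.26, adjusted p = 0.033, edgeR), a call kept under 6 of 12 alternatives with adjusted p from 0.0086 to 0.16; it was lost with the replicate number as a block and without any one library except knockout replicate 2. An antisense gene, Gm26771, overlaps 16.1% of its exonic bases. Dkk2 had 9.26, 9.34 and 9.31 CPM in the control and 8.37, 6.62 and 9.10 CPM in the knockout libraries, with no overlap but no call (adjusted p = 0.2, edgeR). Wif1, Dkk1 and Sfrp5 were scarce, at 1.15 ± 0.302, 0.382 ± 0.0399 and 0.190 ± 0.0740 CPM in control cultures against 1.58 ± 0.659, 0.389 ± 0.147 and 0.0489 ± 0.0846 CPM, overlapped between groups and were not called. Sfrp5 was called lower without knockout replicate 1, when both remaining knockout libraries had 0 counts. Dkk4 had no count in any library, which allows a level of up to 0.0125 CPM in the control group, against 0.0124 CPM in the knockout group.

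Of the R-spondins, which bind LGR receptors and so protect Frizzled from removal, Rspo3 rose (33.3% called, beside 38.3% of all genes). Rspo3 (ENSMUSG00000019880, chromosome 10, 29452416 to 29535867, minus strand) had 25.3, 26.9 and 23.7 CPM in the control and 49.5, 50.2 and 44.8 CPM in the knockout libraries. It was 1.91-fold higher, with knockout libraries far above the highest control (log2 fold change 0.93, SE 0.07, adjusted p = 7.4e-09, edgeR), and 13.1% of its exonic bases overlap an antisense gene, Gm48159, which the count cannot tell apart if strand was not used. Rspo2 was at 2.85 ± 0.534 and 2.64 ± 0.254 CPM and Rspo1 at 0.560 ± 0.0608 and 0.638 ± 0.146 CPM in control and knockout cultures, both overlapping between groups (adjusted p = 0.71 and 0.75, edgeR). Rspo3 made up 90.6% of R-spondin RNA per length in control and 94.9% in knockout cultures, and the sum per kilobase of the 3 genes ran from 8.53 to 9.63 CPM per kb in control and from 15.3 to 17.02 CPM per kb in knockout libraries.

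**Figure D5:**
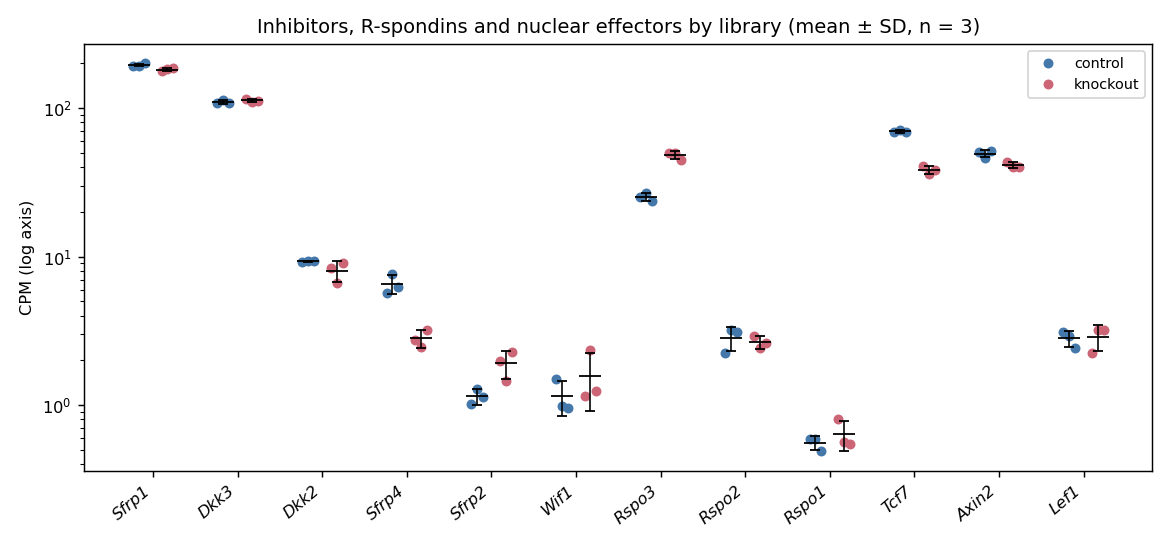
Levels (CPM, log axis) of secreted inhibitors, R-spondins and nuclear genes of the pathway in each library; points are libraries, and lines and bars are the mean ± SD of 3 libraries. Rspo3 is higher and Sfrp4, Tcf7 and Axin2 are lower in the knockout libraries with no overlap, while Dkk3, Wif1, Rspo2, Rspo1 and Lef1 overlap.

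Of the 4 effector genes, Tcf7 and Axin2 fell and Ctnnb1 and Lef1 were not called (50% called, beside 38.3% of all genes). Ctnnb1, which encodes β-catenin itself, had 807, 789 and 828 CPM in the control and 852, 876 and 857 CPM in the knockout libraries. The knockout libraries were all higher, by 1.07-fold, but the difference did not pass the threshold (SE 0.04 on the log2 scale, adjusted p = 0.069, edgeR). It passed with a filter of 1 CPM in 3 libraries (adjusted p = 0.044) and without control replicate 3 (adjusted p = 0.027, both edgeR). Ulk4, on the other strand, overlaps 14.6% of its exonic bases. RNA does not measure the stability or location of the β-catenin protein, through which the pathway acts. Tcf7 (ENSMUSG00000000782, chromosome 11, 52252371 to 52283014, minus strand), which encodes the partner TCF-1, had 68.6, 71.03 and 69.2 CPM in the control and 40.9, 36.1 and 38.1 CPM in the knockout libraries. It fell to 0.551 of control (log2 fold change −0.86, SE 0.06, adjusted p = 2.6e-09, edgeR). Lef1, its close relative, was at 2.81 ± 0.341 and 2.89 ± 0.572 CPM with overlapping groups (adjusted p = 0.9, edgeR), and the sign of its difference depended on the scaling and on single libraries. Antisense genes overlap 13.8% of the exonic bases of Lef1 and 3.80% of those of Axin2. Axin2 (ENSMUSG00000000142, chromosome 11, 108920349 to 108950783, plus strand), both a scaffold of the destruction complex and a feedback target of canonical signalling, had 50.7, 46.1 and 51.3 CPM in the control and 43.6, 40.3 and 40.01 CPM in the knockout libraries. The fall was to 0.837 of control (log2 fold change −0.26, SE 0.06, adjusted p = 0.0036, edgeR), and the lowest control was above the highest knockout library.

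Other genes of the pathway were taken from lists of known components. Among canonical target and feedback genes, 2 rose and 6 fell of 16 tested (50% called, beside 38.3% of all genes; median −0.07). The tight junction gene Cldn1 (17.3 ± 0.855 against 9.49 ± 0.586 CPM), the TGF-β decoy receptor gene Bambi (34.03 ± 2.27 against 24.6 ± 2.78 CPM) and the WNT inhibitor gene Apcdd1 (6.90 ± 0.819 against 4.48 ± 0.136 CPM) fell. Tnfrsf19, a receptor of the TNF family, rose (12.1 ± 0.919 against 18.7 ± 0.171 CPM), and so did Rnf43 (0.594 ± 0.287 against 1.30 ± 0.333 CPM), an E3 ligase that removes Frizzled; this call was lost without control replicate 1, control replicate 2 or knockout replicate 2. Without control replicate 1 or control replicate 2, 1 target gene was higher. Ccnd1 (1029.7 ± 30.7 against 908 ± 41.8 CPM) and Myc (76.6 ± 0.700 against 65.3 ± 4.41 CPM), named after their values were seen, drive cell division and fell. The 8 target genes that were not called were Nkd1, Notum, Nkd2, Sp5, Lgr5, Znrf3, Ascl2 and Prox1, also named after their values were seen. Nkd1 was at 7.29 ± 0.569 and 7.07 ± 0.133 CPM and Notum at 13.0 ± 0.987 and 13.1 ± 1.07 CPM in control and knockout cultures. Cdx1, Cdx2, T and Fgf20 of this list were too low to test.

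Dishevelled and destruction complex genes moved both ways, 8 higher and 9 lower of 21 (81.0% called, beside 38.3% of all genes, with a median of 0.02). The scaffold gene Axin1 fell (67.01 ± 0.0852 against 53.9 ± 1.18 CPM) and the kinase gene Csnk1g2 (135 ± 6.25 against 108 ± 7.55 CPM), and Frat2, a binder of GSK3, fell (6.42 ± 0.995 against 3.53 ± 0.456 CPM). Dvl1 fell (119 ± 3.20 against 93.1 ± 8.50 CPM), and so did the other dishevelled genes, Dvl2 (31.98 ± 1.28 against 26.6 ± 2.11 CPM) and Dvl3 (86.9 ± 1.47 against 71.7 ± 4.41 CPM), which were added after their values were seen. The 8 that rose, also named after their values were seen, were Apc, Amer1, Tnks, Tnks2, Csnk1a1, Csnk1g1, Csnk1g3 and Btrc. Of these, Apc went from 129 ± 19.9 to 178 ± 6.96 CPM and Amer1 from 14.3 ± 2.63 to 20.5 ± 1.55 CPM. Under total-count scaling 5 members of this list were higher, as were 5 without control replicate 1 or control replicate 2. Among nuclear partners of β-catenin, 4 rose and 6 fell of 15 (66.7% called; median −0.04). Ctnnbip1, an inhibitor of the binding of β-catenin to TCF, fell (74.8 ± 2.43 against 46.4 ± 3.41 CPM), and so did the co-repressor genes Aes (223 ± 15.3 against 163 ± 10.8 CPM) and Tle1 (33.4 ± 0.810 against 24.5 ± 1.19 CPM) and the co-activator gene Pygo2 (65.7 ± 0.759 against 48.4 ± 1.03 CPM). Of the remaining TCF genes, which were also named after their values were seen, Tcf7l1 fell (17.1 ± 0.534 against 13.1 ± 1.41 CPM), while Tcf7l2 was at 14.5 ± 0.0810 and 15.2 ± 0.225 CPM and not called (adjusted p = 0.59, edgeR). The 4 nuclear partners that rose, also named after their values were seen, were Pygo1, Bcl9, Chd8 and Hbp1. Pygo1, the relative of Pygo2, went from 15.8 ± 1.66 to 19.8 ± 1.33 CPM, and Bcl9 from 38.0 ± 3.53 to 49.6 ± 7.55 CPM. Only 2 nuclear partners were higher without control replicate 1.

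Genes for WNT export and handling outside the cell numbered 1 higher and 3 lower of 8 (50% called, beside 38.3% of all genes; median −0.15). Wls, the carrier that takes WNT proteins to the cell surface, fell (255 ± 5.76 against 211 ± 14.2 CPM), Gpc4, a glypican, (369 ± 7.22 against 217 ± 6.25 CPM), and Mest (205 ± 6.14 against 112 ± 5.86 CPM), whereas the heparan sulphatase gene Sulf1 rose (129.6 ± 5.94 against 175 ± 2.19 CPM). Without knockout replicate 2, 2 genes of this list were higher. Other antagonists numbered 5 higher and 2 lower of 13 (53.8% called; median −0.11). Frzb, the SFRP relative that is not among the SFRP symbols, rose (2.10 ± 0.311 against 4.27 ± 0.524 CPM). Shisa3 (57.5 ± 0.510 against 155 ± 3.48 CPM), Igfbp4 (168 ± 7.77 against 352 ± 17.97 CPM) and Draxin (2.37 ± 0.103 against 4.22 ± 0.363 CPM) rose too. The lower members numbered 5 under total-count scaling and 1 without control replicate 1, without control replicate 2 or with a filter of 1 CPM in 3 libraries.

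R-spondin receptors and the E3 ligases that they act on numbered 2 higher, Rnf43 and Lgr4, and 0 lower of 5 (40% called, beside 38.3% of all genes; median 0.27). Lgr4 rose from 26.2 ± 1.497 to 29.98 ± 1.14 CPM (adjusted p = 0.033, edgeR), a call lost under total-count scaling (adjusted p = 0.15), with no filter on low counts, and without control replicate 1, control replicate 2, knockout replicate 1 or knockout replicate 3. Znrf3, the relative of Rnf43, was at 19.2 ± 3.76 and 23.2 ± 2.93 CPM and not called (adjusted p = 0.12, edgeR; named after its value was seen), though it was called higher with no filter, with the block, and also when either control replicate 3 or knockout replicate 1 was left out. The list had 1 higher member under total-count scaling, without knockout replicate 2 or without knockout replicate 3, and 0 without control replicate 1 or control replicate 2.

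Receptors and planar polarity genes of the branches without β-catenin numbered 4 higher and 3 lower of 15 (46.7% called, beside 38.3% of all genes; median −0.09). Ror1 (22.04 ± 1.93 against 30.6 ± 0.830 CPM) and Ror2 (10.6 ± 0.763 against 16.8 ± 2.33 CPM), which encode receptors for WNT5A, both rose. Celsr2, a polarity cadherin, fell (75.4 ± 3.84 against 41.8 ± 2.96 CPM), and Daam2, a formin regulator of WNT signalling in glia, (60.9 ± 2.14 against 43.4 ± 1.30 CPM). The other called members, named after their values were seen, were Daam1 (90.3 ± 4.94 against 111 ± 1.92 CPM) and Prickle2, which rose, and Scrib, which fell. The receptor gene Ryk, also named late, was at 97.6 ± 4.65 and 102 ± 3.50 CPM and not called (adjusted p = 0.32, edgeR). Under total-count scaling 5 members of this list were lower. Of 4 genes for norrin and the co-receptor complex through which WNT7A and WNT7B act on vessels, 1 rose and 2 fell (75% called). Adgra2 (GPR124) rose (129 ± 2.56 against 186 ± 17.2 CPM). Ndp, which encodes norrin, fell (5.34 ± 0.482 against 2.92 ± 0.224 CPM), and so did Tspan12 (44.2 ± 5.11 against 34.6 ± 0.257 CPM). Cadherins and catenins of the cell junction, where β-catenin is also bound, numbered 4 higher and 5 lower of 9. All were thus called (100%, beside 38.3% of all genes), with a median of −0.21. Cdh11 (162 ± 5.32 against 318 ± 11.00 CPM), Cdh5 (26.8 ± 0.439 against 53.4 ± 1.93 CPM) and Ctnna2 (45.9 ± 1.68 against 79.98 ± 4.23 CPM) rose, and Jup, the β-catenin relative plakoglobin, fell (48.1 ± 1.57 against 30.8 ± 1.94 CPM). The rest of the list was named after its values were seen. Cdh2 (612 ± 13.9 against 528 ± 6.37 CPM), Ctnna1 (549 ± 5.98 against 468 ± 7.58 CPM), Cdh1 and Ctnnd2 fell, and Ctnnd1 rose.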

How the data were processed

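Poly-T beads selected messenger RNA from Trizol extracts, per the labels' protocols. The submitters' processing notes name HISAT2 2.2.1, featureCounts 2.0.6 and GRCm38 (mm10), per the labels. The values deposited are raw counts, whole reads per gene with no normalisation, in 1 column per library, which was matched to its sample by library name. The sources used here name neither the annotation release nor the strand setting. Without strand, reads from bases that overlap an antisense neighbour cannot be told apart, and may be counted for both genes or for neither.

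The test was that of edgeR 4.0.16 (R 4.3.3), fitted on all genes: filterByExpr (minimum count 10, minimum total 15; 18530 genes, 99.96% of counts), TMM, robust glmQLFit and glmQLFTest on genotype, two-sided, Benjamini-Hochberg, threshold 0.05. Standard errors come from the test statistic. CPM uses TMM library sizes. Per-length levels divide CPM by the union of exons in GENCODE M21 (GRCm38), which also gave coordinates and overlaps. BLAST 2.17.0 aligned no WNT gene to another at or above 95% identity over 100 bases. The fit was also run on simulated counts in which far fewer genes were changed than were called here. That run cannot show how the fit performs when so many genes differ. Libraries of one group differed beyond sampling noise (chi-square per gene 5.98 to 21.9). Alternatives were median-of-ratios and total-count scaling, DESeq2 1.42.0, no filter, 1 CPM in 3 libraries, a replicate block and leaving out each library. Every WNT gene is named; of other lists, up to 4 called genes with the smallest p, and others where stated. The genes and lists were chosen with earlier results of these data known. One listed symbol, Tle5, matched no row, and its older symbol Aes was used.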

Additional observations from a re-analysis of the deposited data

How the results depend on the processing

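The WNT genes called higher numbered 6 to 9 and those called lower 13 to 17 over the 12 alternatives, each within 1.5 times of 8 and 15. Of the 23 called, 18 were called under every alternative; the exceptions were Wnt4, Wnt9b, Sfrp2, Wnt6 and Wnt16, the last because a filter of 1 CPM in 3 libraries left it untested. Over all genes, 3627 were higher and 3466 lower, against 2921 and 4499 under total-count scaling, which moved the median of all genes to −0.067. Replicate numbers are shared by name only: deviations of same-numbered libraries correlated at 0.034, −0.0091 and −0.00030, and 2 of 6 libraries correlated best with their own number. With the replicate number as a block, 6 WNT genes were higher and 15 lower, Sfrp2 and Wnt6 being lost, and 6884 genes were called in all. Directions of uncalled genes turned as follows (log2). Under total-count scaling they were −0.026 for Lef1, −0.036 for Dkk1 and −0.035 for Dkk3. Under the block Dkk1 was −0.038. Leaving out 1 library at a time, the ranges were −0.25 to 0.29 for Dkk1, −0.062 to 0.20 for Lef1, −0.22 to 0.11 for Wnt10b, −0.013 to 0.29 for Rspo1 and −0.038 to 0.57 for Wnt1. The cause was not tested. Depth limits genes under about 1 CPM, such as Wnt6 and Wnt16. No group reached the 4 samples needed to look for single outlying libraries.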
